A study of Mus musculus with 18 samples.

Results

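The difference between the interferon gamma (IFNγ) responses of pancreatic alpha and beta cells was measured in 12 of the 18 libraries of the series, 3 for each combination of cell type and treatment. All were made from islets of male C57BL/6 mice that carried no transgene or deletion. IFNγ alpha cells and IFNγ beta cells came from islets kept for 20 h with 5 ng/mL IFNγ, and control alpha cells and control beta cells from islets kept without it. Both treatments therefore acted on whole islets, and the cells were dissociated and sorted afterwards, with Epcam as a positive gate and CD45, TER119 and CD31 as negative gates, as CD24-low CD71-negative (alpha) or CD24-low CD71-positive (beta). The response of a gene is its log2 ratio of IFNγ over control within a cell type, and the difference is the alpha response minus the beta response, so that a positive value means a larger response in alpha. The level reached is a separate quantity, the log2 ratio of IFNγ alpha over IFNγ beta cells. The other 6 libraries, of delta cells, served to choose genes that respond to IFNγ without using any alpha or beta value.

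IFNγ is secreted mainly by activated T cells and by natural killer cells. It binds a receptor of the chains Ifngr1 and Ifngr2, the kinases Jak1 and Jak2 then act on transcription factors, and GAS elements in promoters and enhancers are bound. A later wave follows through the transcription factor Irf1 and its relatives, which bind ISRE sequences. Among the products are GTPases that attack intracellular parasites, the class I route by which a cell shows peptides to CD8 T cells, antiviral proteins, and feedback inhibitors such as Socs1. In islets this programme is studied because it makes endocrine cells visible to T cells in type 1 diabetes, where beta cells are lost and alpha cells largely persist.

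The sorted fractions carried the markers of their labels. All 10 alpha identity genes were higher in alpha cells and 11 of 12 beta identity genes were higher in beta cells, with IFNγ as well as without it. The glucagon gene Gcg stood at 74633, 88997 and 111587 CPM (a depth-scaled level, not divided by gene length) in IFNγ alpha cells against 907, 1908 and 1234 CPM in IFNγ beta cells. The alpha libraries held some beta cell RNA, since the 12 beta identity genes summed to 1350 to 5012 CPM in IFNγ alpha libraries, to 2303, 3840 and 12558 CPM in control alpha libraries, and to at least 46553 CPM in a beta library. Library totals lay between 6584262 and 10929016 expected counts. The GC balance of a library, the median log2 deviation from the 18-library mean of genes of low GC content minus that of genes of high GC content, was 1.01 and 0.88 in IFNγ alpha 1 and 3 but -0.56 in IFNγ alpha 2, between -0.77 and -0.48 in control alpha, between -0.68 and -0.37 in IFNγ beta, and between -0.71 and 0.23 in control beta libraries. IFNγ alpha 1 and 3 thus stood apart from the other alpha libraries in a technical measure, and several results that rest on them are given without them too. Beta control 3 carries the word papain in its file name in place of CD71.

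No gene passed the test for a difference between the alpha and beta responses. Of 17338 genes tested with edgeR's quasi-likelihood test, 0 (0%) had a larger response in alpha and 0 (0%) a larger response in beta at an adjusted p under 0.05, with 3 libraries per group. The smallest adjusted p was 0.338. At an unadjusted p under 0.05, 1412 genes (8.14%) had a larger response in alpha and 893 (5.15%) in beta. DESeq2 called 6 genes with a larger response in alpha and 5 in beta, and limma-voom called 0 and 0. The 5 in beta were Gvin1, ENSMUSG00000116378, Gbp4, Irgm2 and Serping1, of which Gbp4, Irgm2 and Serping1 respond to IFNγ in delta cells. Their DESeq2 differences were -2.79 for Gbp4, -1.86 for Irgm2 and -1.62 for Serping1. None of the 6 in alpha (AC117816.1, Sertad4, Dbndd2, BC024063, Timp3 and Gm28439) was a responder in delta cells, and Gm28439 had 6498 counts in IFNγ alpha 1 and 0 in the other alpha libraries. These genes were named after their values were seen.

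The count moved with a library and with the filter. With all libraries and no low-count filter, edgeR called 408 genes with a larger response in alpha and 131 in beta, of which 405 and 126 also passed the filter. Without IFNγ alpha 2, edgeR called 674 genes with a larger response in alpha and 701 in beta, while leaving out any other single library gave 0 and 0. The 674 had a median GC content of 40.9% and the 701 one of 57.2%, against 48.9% over all genes tested, and the alpha IFNγ libraries left in that fit were those with a GC balance of 1.01 and 0.88. Responders in delta cells made up 14 of the 674 (2.08%) and 22 of the 701 (3.14%), beside 1.25% of all genes tested. Among the calls with no low-count filter they made up 13 of the 408 (3.19%) and 17 of the 131 (13%). Median GC content was 39.8% in the 408 and 55.5% in the 131. At least 1 group held 0 counts for 15 of the 408 and 17 of the 131. The part of GC content in these calls was not tested.

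Both cell types mounted the response. IFNγ raised 163 genes (0.94%) in alpha cells and 183 genes (1.06%) in beta cells, and 129 genes were raised in both. Another 34 passed in alpha and not in beta and 54 in beta and not in alpha, but none of these differed between the cell types in the test of the difference itself. In these bulk libraries, fewer responding cells and a smaller response per cell cannot be told apart.

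The 216 genes raised by IFNγ in the separate fit of delta libraries were chosen with no alpha or beta value. The GC balance was 0.81, 0.43 and 0.87 in IFNγ delta libraries and -0.11, -0.06 and 0.87 in control delta libraries. The part of GC content in this choice was not tested. The median log2 response of the 216 genes was 1.98 in alpha and 2.41 in beta cells. Their median difference was -0.29, beside -0.05 over all genes tested. The spread of this median between single libraries, combined over the 4 groups, was 0.262 (SD). That spread is for single libraries, whereas the median difference rests on means of 3 libraries per group. The response was larger in beta for 130 of them (60.2%) and larger in alpha for 85, against 52.7% larger in beta over all genes. At an unadjusted p under 0.05, 40 (18.5%) had a larger response in beta and 17 (7.87%) in alpha, beside the 5.15% and 8.14% over all genes. Leaving out 1 library at a time gave medians of -0.41 to -0.18. The 95% interval of the difference lay within 1 log2 unit of 0 for 23 of the 216 and within 2 units for 105. Across the 178 responders with over 3 counts in both control groups, the alpha and beta responses correlated with Pearson's r = 0.831 (Spearman's rho = 0.774), a description across genes, which are not independent and share library depth.

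**Figure D1:**
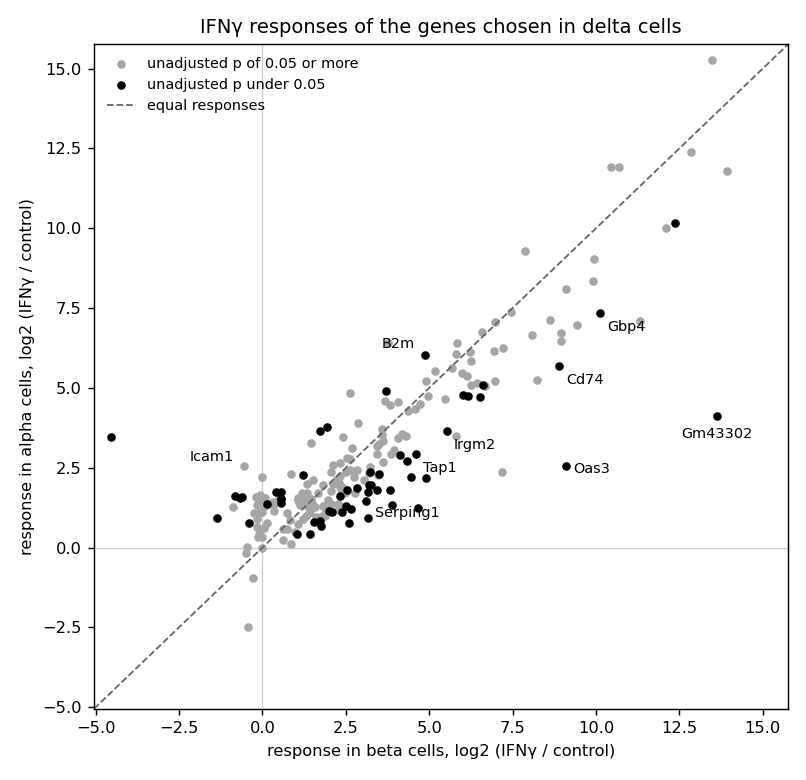
Log2 response to IFNγ in alpha cells (vertical axis) and in beta cells (horizontal axis) for the 216 genes raised by IFNγ in delta cells, 1 point per gene. The dashed line marks equal responses; 130 points lie on the beta side of it and 85 on the alpha side, and black points have an unadjusted p under 0.05 for the difference, none of them past adjustment.

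The 172 protein-coding responders and the 44 others went different ways. Among the protein-coding genes the median difference was -0.41, with 115 larger in beta, and among the other transcripts it was 0.68, with 28 larger in alpha. Those named by the rule included Gm37569, Gm44829 and Gm38260. Gm44829 had 23.8, 6.92 and 11.4 CPM in IFNγ alpha cells and 5.08, 5.62 and 3.74 CPM in control alpha cells, against 4.97, 2.49 and 6.06 CPM in IFNγ beta cells and 3.42, 5.03 and 13.4 CPM in control beta cells. Its highest value was in IFNγ alpha 1, a library of high GC balance, and the difference was 2.24 ± 0.68 (SE, adjusted p = 0.369). Gm37569 (2.45 ± 0.82) and Gm38260 (2.19 ± 0.94) likewise had their highest level in IFNγ alpha 1. In Rnu5g, a U5 small nuclear RNA, IFNγ alpha 2 had 0 CPM beside 140.0 and 569 CPM in IFNγ alpha 1 and 3, and without those 2 libraries the difference was -11.83 instead of 2.13. With GC offsets in the fit the difference was 1.14 for Gm37569, 0.78 for Gm44829 and 0.93 for Gm38260, and without IFNγ alpha 1 and 3 it was 0.99, 1.22 and 0.86 in that order. The level reached, called higher in alpha for all of these, was 0.53 for Gm37569 (adjusted p = 0.406) and 0.49 for Gm44829 (adjusted p = 0.281) with GC offsets, while the call for Gm38260 held. Without IFNγ alpha 1 and 3 none of these level calls held, at 0.15 for Gm37569 (adjusted p = 0.963), 0.62 for Gm44829 (adjusted p = 0.654) and 2.03 for Gm38260 (adjusted p = 0.11).

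Promoter windows of some genes described here hold motifs known from interferon responses and others do not. Those of Irgm2, Igtp and H2-T22, whose responses were larger in beta, and of B2m, whose response was larger in alpha, are printed 5′ to 3′ from 250 bases before to 50 bases after the start (RefSeq, GRCm38.p6), with matches to the GAS motif TTCNNNGAA and to an ISRE-type motif of a pair of GAAA blocks with 2 bases between them, on either strand, in capitals. The windows are Irgm2 chr11:58214727-58215026, plus strand, Igtp chr11:58199306-58199605, plus strand, H2-T22 chr17:36042693-36042992, minus strand, and B2m chr2:122147437-122147736, plus strand.
Irgm2: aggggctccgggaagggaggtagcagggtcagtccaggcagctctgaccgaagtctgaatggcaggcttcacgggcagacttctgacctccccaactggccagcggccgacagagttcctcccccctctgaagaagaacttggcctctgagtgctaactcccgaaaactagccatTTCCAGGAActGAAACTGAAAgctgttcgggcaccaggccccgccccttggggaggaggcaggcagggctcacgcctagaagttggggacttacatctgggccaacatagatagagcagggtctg
Igtp: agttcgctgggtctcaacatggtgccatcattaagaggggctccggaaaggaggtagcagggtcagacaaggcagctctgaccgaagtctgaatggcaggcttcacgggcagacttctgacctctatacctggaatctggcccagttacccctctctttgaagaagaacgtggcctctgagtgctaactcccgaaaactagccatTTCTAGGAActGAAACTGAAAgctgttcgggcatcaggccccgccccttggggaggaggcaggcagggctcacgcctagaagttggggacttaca
H2-T22: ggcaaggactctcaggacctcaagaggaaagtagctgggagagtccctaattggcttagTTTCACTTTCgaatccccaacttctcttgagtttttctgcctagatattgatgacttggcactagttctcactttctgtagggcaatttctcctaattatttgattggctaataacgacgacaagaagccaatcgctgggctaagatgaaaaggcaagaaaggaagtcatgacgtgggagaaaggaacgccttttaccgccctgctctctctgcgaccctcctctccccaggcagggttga
B2m: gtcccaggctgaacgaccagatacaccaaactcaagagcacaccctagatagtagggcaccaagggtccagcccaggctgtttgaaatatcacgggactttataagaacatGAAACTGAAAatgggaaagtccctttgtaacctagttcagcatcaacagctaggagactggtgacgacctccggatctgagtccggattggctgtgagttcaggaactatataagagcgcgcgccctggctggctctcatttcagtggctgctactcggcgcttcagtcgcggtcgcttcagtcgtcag
Irgm2 and Igtp each held 1 GAS and 1 ISRE-type match, while H2-T22 and B2m each held 1 ISRE-type match and no GAS match. These 4 are shown because they hold a match, and they are not the only ones. Among windows not printed, those of Irf1, Pigr and Icam1 each held 1 GAS match, and that of Socs1 held 2 overlapping ISRE-type matches. The windows of Tap1, H2-K1, Cd274, Csf1 and Psmb9 held 0 matches to either motif. Of the 27025 windows of the table, 8.47% held the GAS letters and 3.49% the ISRE-type letters. Only 133 of the 216 responders had a window, so no share among responders is set against that of other genes.

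The signalling chain itself gave small differences. Ifngr1, the ligand-binding receptor chain, had 10.1, 8.22 and 9.86 CPM in IFNγ alpha cells and 7.55, 8.70 and 7.69 CPM in control alpha cells, against 12.4, 14.1 and 10.6 CPM in IFNγ beta cells and 10.4, 13.6 and 12.9 CPM in control beta cells. Alpha libraries lay below beta libraries under both treatments, but neither contrast passed (level reached -0.40, adjusted p = 0.205; controls -0.62, adjusted p = 0.0655). Jak1, the kinase bound to Ifngr1, was lower in control alpha than in control beta cells (-0.76, adjusted p = 0.00441) and had a difference of responses of 0.50 ± 0.25. Of the 10 genes of the receptor and JAK-STAT list, 2 rose in alpha and 2 in beta, and the median difference was 0.08.

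The feedback inhibitors gave mixed values. Socs1, which blocks JAK activity, had 5.78, 9.22 and 4.64 CPM in IFNγ alpha cells and 1.74, 0.937 and 2.89 CPM in control alpha cells. In beta cells it had 8.88, 7.35 and 17.4 CPM with IFNγ and 0.997, 0.351 and 1.07 CPM without. The IFNγ groups overlapped. Socs1 rose in beta (3.82 ± 0.60, adjusted p = 0.000762), the alpha value was 1.79 ± 0.53 (adjusted p = 0.128), and the difference was -2.03 ± 0.80 (unadjusted p = 0.0206, adjusted p = 0.369). With GC offsets in the fit its difference was -1.29. Of the 10 genes of this list, 0 rose in alpha, 2 rose in beta and the median difference was -0.25.

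Among the transcription factors, 5 of 9 measured genes rose in alpha and 8 in beta, and the difference was negative for 8 of the 9 (median -0.44). Irf1 had 135, 154 and 129 CPM in IFNγ alpha cells and 37.8, 34.0 and 41.5 CPM in control alpha cells, against 157, 176 and 237 CPM in IFNγ beta cells and 43.6, 34.9 and 35.5 CPM in control beta cells. The controls overlapped, the IFNγ alpha libraries lay below the IFNγ beta libraries, and the difference was -0.44 with an interval of -1.07 to 0.19. Irf7, a factor of the antiviral programme, rose by 1.81 ± 0.37 in alpha and by 3.44 ± 0.39 in beta, a difference of -1.63 ± 0.52 (unadjusted p = 0.00568). With GC offsets in the fit the difference was 0.01 for Irf1 and -1.02 for Irf7. Nlrc5, the activator of class I genes, reached overlapping levels, with 89.2, 119 and 87.6 CPM in IFNγ alpha and 74.6, 69.5 and 129.5 CPM in IFNγ beta cells.

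**Figure D2:**
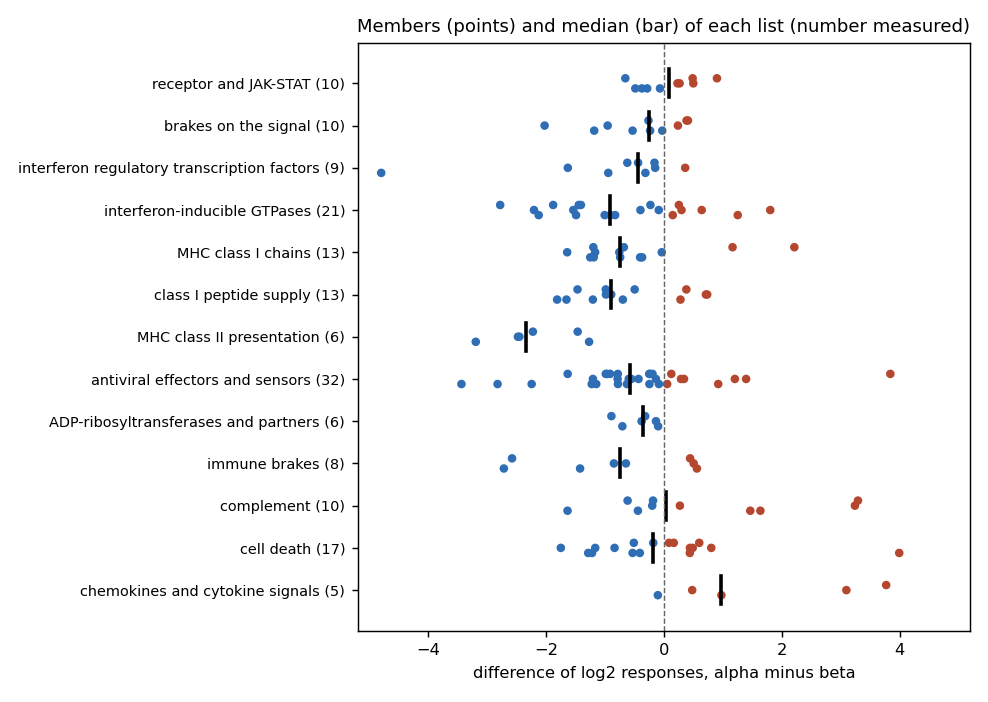
Difference of log2 responses, alpha minus beta, for the measured members of 13 gene lists (horizontal axis), 1 point per gene, red where the response was larger in alpha and blue where it was larger in beta, with the list's median as a bar. Members of the class I, class II and GTPase lists lie mostly left of 0; 2 members fall outside the axis, which ends at 5 log2 units on each side.

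The interferon-inducible GTPases, which coat and disrupt the vacuoles of intracellular parasites, responded in both cell types. Of 21 measured members 20 rose in alpha and 20 in beta, with a median response of 6.64 in alpha and 7.46 in beta, and 15 had a larger response in beta (median difference -0.91). In 6 members a control group held 3 counts or fewer, and with those groups set to 3 counts both median responses were 6.66 and the median difference was -1.06. Their summed level was 6069, 4321 and 7410.4 CPM in IFNγ alpha cells and 85.4 to 115 CPM in control alpha cells, against 6211, 10068 and 10003 CPM in IFNγ beta cells and 90.6 to 103 CPM in control beta cells. The sums of the IFNγ groups overlapped. Members of this family are similar in sequence, and how the counting divided reads between copies is not known.

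Irgm2, a member of the immunity-related GTPases, had the smallest p of all genes. It had 200.4, 283 and 313 CPM in IFNγ alpha cells and 24.8, 16.6 and 22.3 CPM in control alpha cells, against 307, 401 and 389.7 CPM in IFNγ beta cells and 9.54, 8.55 and 5.63 CPM in control beta cells. The control alpha libraries all lay above the control beta libraries (1.42, adjusted p = 0.00036), while the IFNγ groups overlapped (-0.46, adjusted p = 0.13). Irgm2 rose by 3.64 ± 0.25 in alpha and by 5.53 ± 0.28 in beta, and the difference was -1.88 ± 0.33 with an interval of -2.58 to -1.19 (unadjusted p = 1.95e-05, adjusted p = 0.338). Within the pair of dates that held all 4 groups, 1 library of each group per date, it was -1.48 and -1.29. The annotated span of Irgm2 (ENSMUSG00000069874, chromosome 11, 58199618 to 58222782, GRCm38) contains most of that of Igtp (ENSMUSG00000078853, 58199556 to 58207591) on the same strand, so the share of reads given to each is uncertain.

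Igtp had 188, 310.4 and 425 CPM in IFNγ alpha cells and 7.85, 8.97 and 10.5 CPM in control alpha cells, against 537, 742 and 611 CPM in IFNγ beta cells and 8.12, 6.91 and 4.11 CPM in control beta cells. Here it was the IFNγ groups that did not overlap. The level reached was lower in alpha (-1.03, adjusted p = 0.00987, and -0.77, adjusted p = 0.062, without IFNγ alpha 1), and the difference of responses was -1.54 ± 0.42 (unadjusted p = 0.00159).

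Gbp4, a guanylate-binding protein, had 623, 337 and 561 CPM in IFNγ alpha cells and 3.78, 1.20 and 4.27 CPM in control alpha cells, against 348, 653 and 863 CPM in IFNγ beta cells and 0.712, 0.468 and 0.456 CPM in control beta cells. As for Irgm2, the controls did not overlap (2.49, adjusted p = 0.0032) and the IFNγ groups did (-0.29, adjusted p = 0.536). The difference was -2.78 ± 0.65 (unadjusted p = 0.000409) over all libraries and -2.14 and -1.26 within the dates. The gain in CPM was 504 in alpha and 621 in beta.

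Class I presentation leaned towards beta cells in the fit of all 18 libraries. MHC class I chains, which hold the peptide at the surface, had a larger response in beta for 11 of 13 measured members (median difference -0.75), and the genes that make and load peptides for 9 of 13 (median -0.90). At an unadjusted p under 0.05, 5 of the class I chains and 7 of the supply genes had a larger response in beta, and 1 and 0 in alpha. In the level reached, 4 class I chains and 8 supply genes were lower in alpha by the adjusted test, and none was higher. Over all genes tested 2398 (13.8%) reached a higher and 2300 (13.3%) a lower level in alpha. The list medians were close to 0 within the date of IFNγ alpha 2. They were -0.18 for class I chains and -0.19 for peptide supply, with 9 and 11 of the 13 members below 0. Within the date of IFNγ alpha 3, the library with a GC balance of 0.88, they were -0.81 and -0.89, with 9 and 10 below 0. Over all genes tested the medians within these dates were -0.007 and -0.02.

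Tap1, a subunit of the pump that carries peptides into the endoplasmic reticulum, had 83.1, 147 and 86.7 CPM in IFNγ alpha cells and 11.6, 13.1 and 16.4 CPM in control alpha cells, against 192, 209 and 271 CPM in IFNγ beta cells and 10.4, 7.96 and 9.43 CPM in control beta cells. Neither treatment's groups overlapped, and they were in opposite order, with alpha above beta in controls and below it with IFNγ. Tap1 rose by 2.94 ± 0.28 in alpha and by 4.60 ± 0.30 in beta, and the difference was -1.66 ± 0.38 (unadjusted p = 0.000378). Its within-date values were -0.55 and -1.97. The level reached was lower in alpha (-1.09, adjusted p = 0.00438), and without IFNγ alpha 1 and 3 it was -0.61 (adjusted p = 0.352).

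H2-T22, a nonclassical class I chain, had 35.3, 42.8 and 34.4 CPM in IFNγ alpha cells and 14.2, 16.2 and 15.1 CPM in control alpha cells, against 97.5, 107 and 109.7 CPM in IFNγ beta cells and 22.6, 17.6 and 15.4 CPM in control beta cells. The controls overlapped and the IFNγ groups were far apart (-1.48, adjusted p = 4.7e-05). The difference was -1.19 ± 0.30 (unadjusted p = 0.000905), and -0.52 and -1.52 within the dates. H2-K1, a classical chain, had 630.4, 999 and 544 CPM in IFNγ alpha cells against 1404, 1314 and 1396 CPM in IFNγ beta cells (-0.92, adjusted p = 0.00739), with overlapping controls. Without IFNγ alpha 1 and 3 its level difference was -0.46 (adjusted p = 0.457).

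B2m, the light chain shared by all class I molecules, went the other way. It had 2679, 992 and 1345 CPM in IFNγ alpha cells and 25.6, 24.8 and 26.2 CPM in control alpha cells, against 976, 1714 and 1026 CPM in IFNγ beta cells and 31.2, 35.2 and 60.6 CPM in control beta cells. The IFNγ groups overlapped, and the control alpha libraries lay below the control beta libraries. B2m rose by 6.03 ± 0.44 in alpha and by 4.87 ± 0.41 in beta, a difference of 1.16 with an interval of 0.10 to 2.22 (unadjusted p = 0.0332, adjusted p = 0.37). Within the dates it was 0.31 and 0.16.

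**Figure D3:**
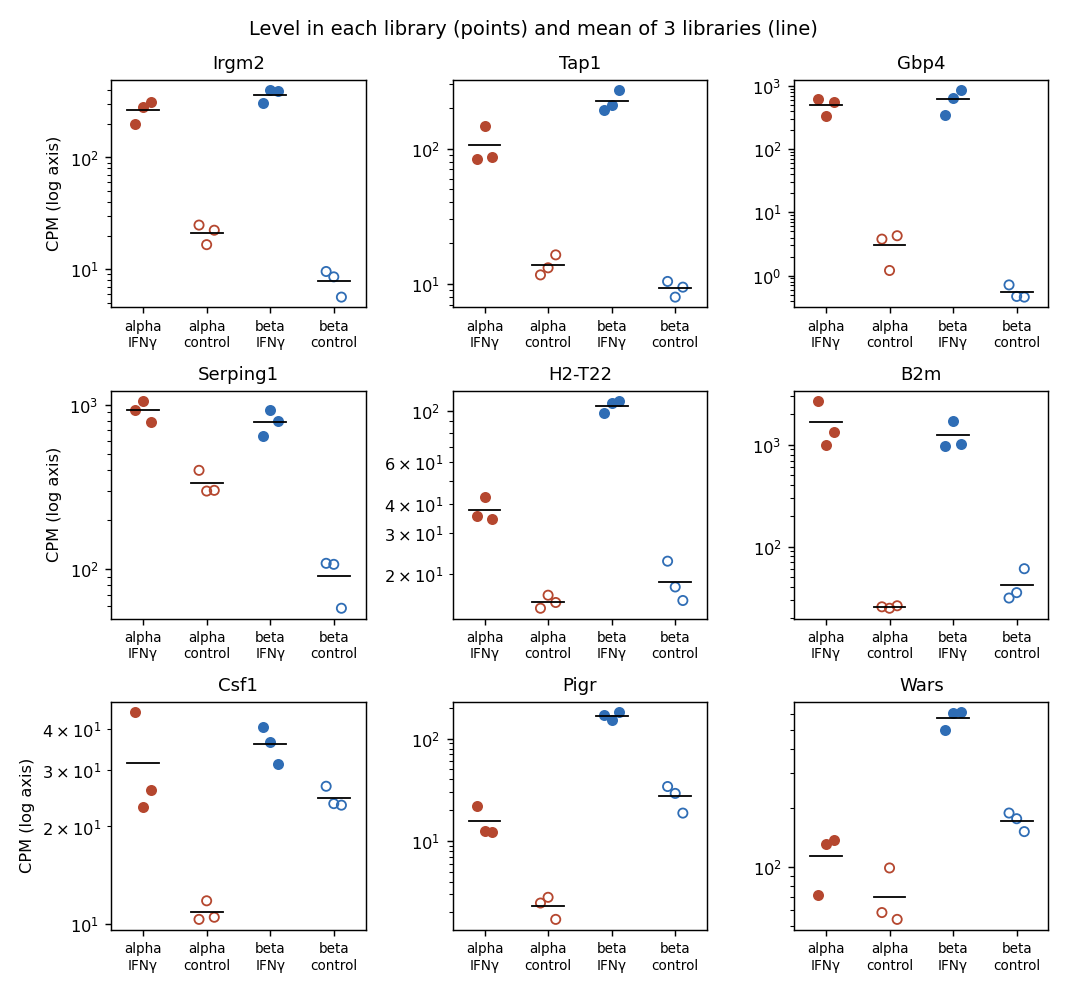
CPM of 9 genes in each of the 12 libraries on log axes, with filled points for IFNγ and open points for control libraries, red for alpha and blue for beta, and a line at the mean of 3 libraries. In Irgm2, Gbp4 and Serping1 the groups differ in the controls; in H2-T22 they differ with IFNγ; in Pigr and Wars they differ under both treatments.

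MHC class II genes, which are usually a property of immune cells, came on in both cell types from near 0. Cd74, the invariant chain of class II molecules, had 64.8, 50.4 and 22.05 CPM in IFNγ alpha cells against 34.6, 56.8 and 58.0 CPM in IFNγ beta cells, and at most 1.39 CPM in a control alpha and 0.152 CPM in a control beta library. The IFNγ groups overlapped (-0.13, adjusted p = 0.822). The difference of responses was -3.20 ± 1.09, but the control beta libraries held 2 counts in all, so the size of the beta response is poorly known. H2-Aa, a class II alpha chain, had 14.3 to 19.3 CPM in IFNγ alpha cells against 18.7 to 35.9 CPM in IFNγ beta cells. All 6 measured class II genes had a larger fitted response in beta (median -2.34, and -1.39 with groups of 3 counts or fewer set to 3). By the adjusted test 3 of them (50%) reached a lower level in alpha, beside 13.3% over all genes. Within the date of IFNγ alpha 2 the median difference was 0.14, with 2 of the 6 genes below 0, and within the date of IFNγ alpha 3 it was -2.15, with 6 below 0. Cd74 likewise had 0.53 and -3.70 within these dates, so the direction was not the same at both. As a check for leukocyte RNA, 14 leukocyte genes summed to 36 to 50 counts in IFNγ alpha, 37 to 68 in control alpha, 44 to 69 in IFNγ beta and 36 to 48 in control beta libraries, and Cd3e, Adgre1 and Tyrobp had 0 counts in all 12. The CD45 gene Ptprc had 3 counts in all 12 libraries together. The highest members were C1qa with 318 and Cd68 with 156 of the 591 counts of the list in all 12 libraries. C1qa had 14 to 50 counts per library.

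Among 32 antiviral effectors and sensors, 21 rose in alpha and 27 in beta, and 24 had a larger response in beta (median difference -0.58). In the level reached 13 (40.6%) were lower and 3 (9.38%) higher in alpha by the adjusted test, beside 13.3% and 13.8% over all genes. Oas2, which makes the second messenger that activates RNase L, had 24.2, 26.6 and 15.5 CPM in IFNγ alpha cells and 0.581, 0.268 and 1.71 CPM in control alpha cells, against 94.9, 84.2 and 137 CPM in IFNγ beta cells and 8.97, 6.21 and 9.74 CPM in control beta cells. Alpha lay below beta under both treatments (-2.25, adjusted p = 0.000213 with IFNγ; -3.17, adjusted p = 0.000185 in controls). Its response was 4.59 in alpha and 3.67 in beta, so Oas2 combined a similar or larger fold in alpha with a lower level. Oas3, a relative, had 1.55, 3.01 and 2.90 CPM in IFNγ alpha and 0.145, 0.268 and 0.748 CPM in control alpha cells, against 7.46, 6.76 and 9.09 CPM in IFNγ beta cells and 0 CPM in each control beta library. With a floor of 3 counts over the control beta group the beta response was at least 5.85 on the log2 scale, while the alpha response was 2.56 ± 0.67 (adjusted p = 0.0947). Ifih1, the sensor of long double-stranded RNA, was a gene with a higher level in alpha (1.86) and a difference of responses of 0.34.

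All 6 ADP-ribosyltransferases and partners had a larger response in beta (median difference -0.35), and 5 rose in alpha and 6 in beta. Parp12, an antiviral member, had 98.2, 99.1 and 103 CPM in IFNγ alpha cells and 29.5, 31.8 and 36.7 CPM in control alpha cells, against 116, 151 and 172 CPM in IFNγ beta cells and 30.8, 30.8 and 26.2 CPM in control beta cells. The difference was -0.71 ± 0.25 (unadjusted p = 0.0106), with overlapping controls and IFNγ groups that did not overlap.

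**Figure D4:**
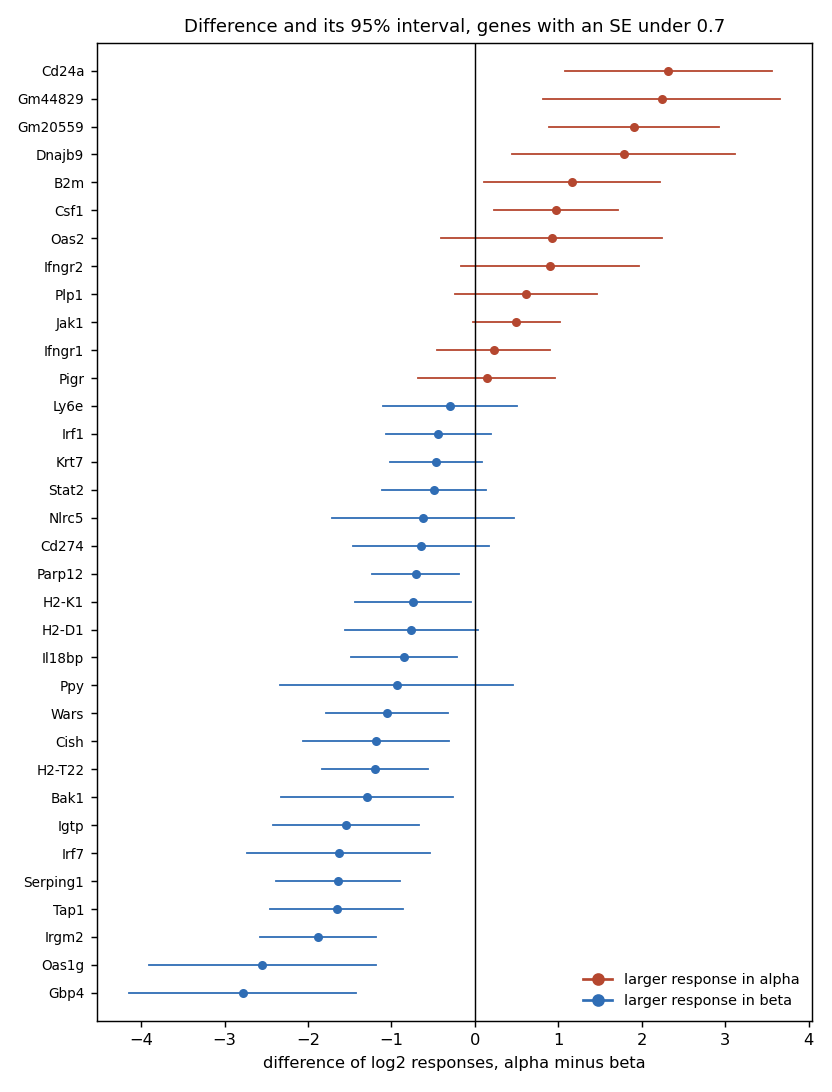
Difference of log2 responses, alpha minus beta, with its 95% interval (horizontal axis), for 34 of the named genes with an SE under 0.7, red where larger in alpha and blue where larger in beta. In 22 genes the response was larger in beta. Of the intervals, 14 lie below 0 and 6 above it, none of them past adjustment over 17338 genes. Some of these genes were named for a large difference or a small p in these same data, so the counts follow that choice and are no test.

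Of the 8 measured immune brakes, 4 rose in alpha and 4 in beta, with 5 larger in beta (median difference -0.75). Cd274, which encodes the T cell inhibitor PD-L1, had 134, 135 and 220.1 CPM in IFNγ alpha cells and 18.9, 14.9 and 11.8 CPM in control alpha cells, against 271, 391 and 347 CPM in IFNγ beta cells and 22.8, 20.6 and 16.3 CPM in control beta cells. The controls overlapped and the IFNγ groups did not, with a lower level in alpha (-1.05, adjusted p = 0.00718) and a difference of responses of -0.65 (interval -1.46 to 0.16). Il18bp, a soluble trap for interleukin 18, had 149.7, 131 and 162 CPM in IFNγ alpha cells and 30.5, 28.5 and 26.5 CPM in control alpha cells, against 265, 455 and 341 CPM in IFNγ beta cells and 42.6, 39.7 and 31.2 CPM in control beta cells. It was lower in alpha with IFNγ (-1.26, adjusted p = 0.000268), and the difference of responses was -0.85 ± 0.30 (unadjusted p = 0.0115). Both level calls held in every alternative that was run.

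Serping1, the C1 inhibitor that restrains complement, had 931, 1049.6 and 786 CPM in IFNγ alpha cells and 399, 299 and 302 CPM in control alpha cells, against 644, 926 and 793 CPM in IFNγ beta cells and 109, 107 and 58.0 CPM in control beta cells. The controls did not overlap (1.87, adjusted p = 3.95e-05), whereas the IFNγ groups did (0.23, adjusted p = 0.53). Serping1 rose by 1.47 ± 0.25 in alpha and by 3.11 ± 0.27 in beta, a difference of -1.64 ± 0.36 (unadjusted p = 0.000205), and -1.17 and -1.71 within the dates. In CPM it gained 589 in alpha and 696 in beta. Over the 10 measured complement genes the median difference was 0.04, with 5 larger in each cell type.

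Few cytokine genes were measurable, 5 of the 10 listed. Of these 5, 2 rose in alpha and 1 in beta, and 4 had a larger response in alpha. The median difference was 0.97, and 0.54 with groups of 3 counts or fewer set to 3. Within the dates it was 0.53 and -0.25. Csf1, the macrophage growth factor, had 45.1, 22.96 and 26.01 CPM in IFNγ alpha cells and 10.3, 11.8 and 10.5 CPM in control alpha cells, against 40.7, 36.5 and 31.1 CPM in IFNγ beta cells and 26.6, 23.5 and 23.3 CPM in control beta cells. Control alpha lay below control beta (-1.17, adjusted p = 0.0028), and the IFNγ groups overlapped (-0.20, adjusted p = 0.579). The difference of responses was 0.97 ± 0.35 (unadjusted p = 0.0128), and 0.53 and 0.50 within the dates. Cxcl10, a T cell attractant, had 17.3, 15.2 and 13.2 CPM in IFNγ alpha cells against 11.2, 34.0 and 33.3 CPM in IFNγ beta cells, with at most 1.07 CPM in a control library, and its difference was -0.11 with an interval of -2.25 to 2.03. Icam1, an adhesion molecule for T cells, had 36.0 CPM in IFNγ alpha 1 and at most 0.902 CPM in the other IFNγ alpha libraries, against 0.355 to 0.948 CPM in IFNγ beta cells. Its level was called higher in alpha (3.99, adjusted p = 0.019), and without IFNγ alpha 1 it was 0.03 (adjusted p = 0.989).

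Of 17 measured cell death genes, 4 rose in alpha and 5 in beta, 9 had a larger response in beta and 8 in alpha, and the median difference was -0.18. Bak1, a pore former of the mitochondrial route, had 6.04, 11.3 and 5.22 CPM in IFNγ alpha and 7.99, 8.83 and 12.5 CPM in control alpha cells, against 14.2, 17.1 and 13.6 CPM in IFNγ beta and 10.5, 6.32 and 7.15 CPM in control beta cells. It passed in neither cell type (alpha -0.38, adjusted p = 0.517; beta 0.91, adjusted p = 0.77), and the difference was -1.29 ± 0.49 (unadjusted p = 0.017).

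Of the 216 responders, 35 (16.2%) reached a higher level in alpha and 56 (25.9%) a lower one by the adjusted test, beside 13.8% and 13.3% over all genes. In the controls, 24 (11.1%) were higher in alpha and 18 (8.33%) lower, beside 9.56% and 10.1% over all genes. With IFNγ, all 3 alpha libraries lay above all 3 beta libraries for 26 responders, below them for 66, and the groups overlapped for 124. Over all 17338 genes tested these counts were 3402, 3452 and 10484. Of the 130 responders with a smaller response in alpha, 105 reached a lower fitted level in alpha, 88 had a higher fitted level in control alpha than in control beta cells, and 63 had both. The difference of responses is the level reached minus the same log2 ratio in controls. A smaller fold in alpha must therefore come with a higher starting level, a lower level reached, or both. Over all genes tested, 9129 had a smaller response in alpha. Of these, 6257 reached a lower level, 5937 had a higher control level and 3065 had both. By the adjusted test, alpha was higher in controls for Irgm2, Gbp4 and Serping1, and lower with IFNγ for H2-T22 and Il18bp.

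In Pigr and Wars the levels lay apart under both treatments. Pigr, the receptor that carries antibodies across epithelia, had 22.2, 12.6 and 12.3 CPM in IFNγ alpha cells and 2.47, 2.81 and 1.71 CPM in control alpha cells, against 171, 154 and 181 CPM in IFNγ beta cells and 34.0, 29.2 and 18.7 CPM in control beta cells. Alpha lay below beta under both treatments, the response was 2.76 ± 0.32 in alpha and 2.62 ± 0.28 in beta, and the difference was 0.14 with an interval of -0.68 to 0.96. The level reached was -3.42 (adjusted p = 1.65e-07). Wars, the tryptophanyl-tRNA synthetase, had 71.4, 131 and 137 CPM in IFNγ alpha cells and 58.3, 98.5 and 53.8 CPM in control alpha cells, against 498, 609.8 and 615 CPM in IFNγ beta cells and 188, 176 and 151 CPM in control beta cells. It rose in beta (1.74 ± 0.25, adjusted p = 0.00029), the alpha groups overlapped (0.69 ± 0.25, adjusted p = 0.16), and the difference was -1.06 ± 0.35 (unadjusted p = 0.00733). With IFNγ it was lower in alpha by every library (-2.35, adjusted p = 2.84e-06).

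**Figure D5:**
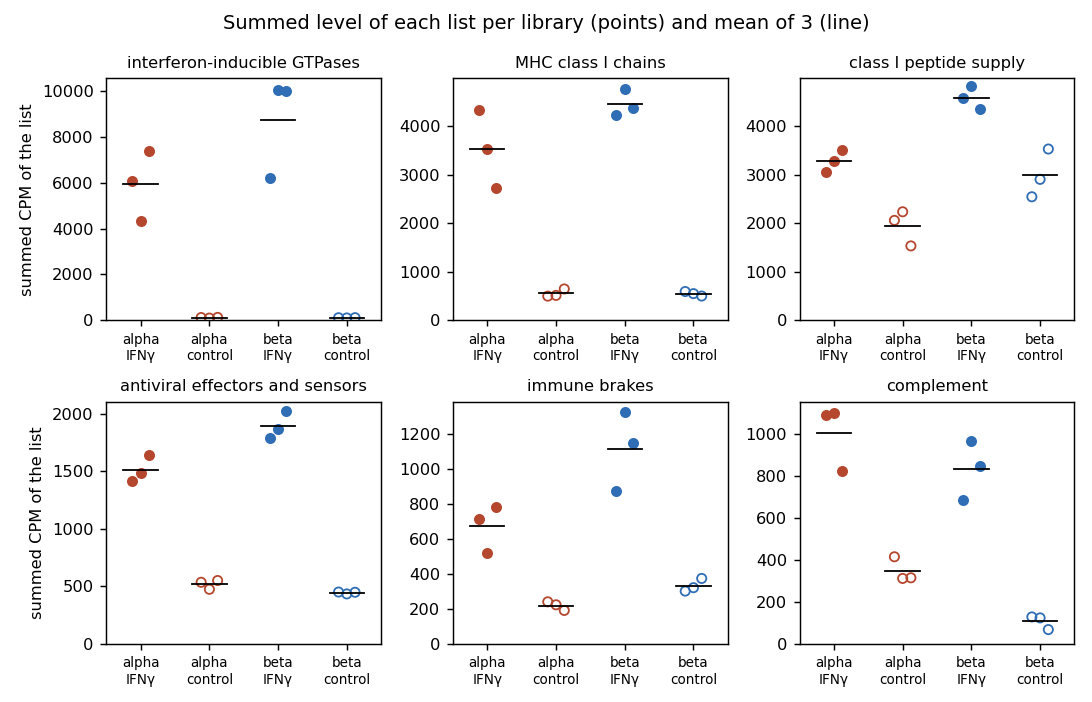
Summed CPM of the measured members of 6 gene lists in each of the 12 libraries, with filled points for IFNγ and open points for control, red for alpha and blue for beta, and a line at the mean of 3 libraries. IFNγ alpha libraries lie below IFNγ beta libraries for peptide supply, the antiviral list and the immune brakes, while the GTPase, class I chain and complement sums overlap.

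Over the whole list, peptide supply genes summed to 3059, 3277 and 3513 CPM in IFNγ alpha cells and 1529 to 2233 CPM in control alpha cells, against 4583, 4818 and 4343 CPM in IFNγ beta cells and 2542 to 3527 CPM in control beta cells. Antiviral genes summed to 1416 to 1643 CPM in IFNγ alpha and 1786 to 2022 CPM in IFNγ beta cells. Immune brakes summed to 518 to 784 CPM in IFNγ alpha and 875 to 1327 CPM in IFNγ beta cells. The 3 IFNγ alpha libraries lay below the 3 IFNγ beta libraries in each of these sums, whereas class I chains overlapped, at 2725 to 4329 CPM in IFNγ alpha and 4232 to 4768 CPM in IFNγ beta cells. Over the 216 responders the sum was 21776, 17593 and 20709 CPM in IFNγ alpha cells against 22478, 29011 and 29704 CPM in IFNγ beta cells, and 3612 to 4244 CPM in control alpha against 3750.3 to 4281 CPM in control beta cells.

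Identity genes and genes of other cells moved with single libraries. None of the 12 beta identity, 10 alpha identity or 13 unfolded protein response genes rose or fell with IFNγ in either cell type. Ins2 had 291, 1637 and 1577 CPM in IFNγ alpha cells and 1728, 6503 and 633 CPM in control alpha cells, against 30178, 29596 and 17515 CPM in IFNγ beta cells and 29883, 25346 and 29254 CPM in control beta cells, and its difference was -1.21 ± 1.03. The IFNγ alpha and control alpha values overlapped. Dnajb9, an endoplasmic reticulum chaperone, had 764 CPM in beta control 3 beside 210.4 and 355 CPM in the other control beta libraries, and a difference of 1.78 ± 0.64. The 17 acinar genes summed to 2292 CPM in beta control 1, to 84.8 and 2.9 CPM in the other control beta libraries, to 4.1 to 176.5 CPM in IFNγ beta libraries and to at most 51.3 CPM in an alpha library, and 16 of them had a larger fitted response in alpha. Cd24a, which encodes the sort marker CD24, had a difference of 2.32 ± 0.59 (unadjusted p = 0.000984) at 0.641 to 7.55 CPM. The part of these other cells in the responder values was not tested. Without alpha control 2 and beta controls 1 and 3, the median difference of the responders was -0.43 and no gene passed the test of the difference.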

How the data were processed

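The authors aligned paired-end reads of rRNA-depleted libraries (Ovation SoLo kit) with STAR to GRCm38 and quantified genes with RSEM. The deposited files hold, per library, expected counts (RSEM estimates, partly fractions) and TPM and FPKM levels that the authors normalized for length and depth. Expected counts were rounded, genes were filtered with filterByExpr (minimum count 10), libraries were scaled by TMM, and all 18 libraries entered a single edgeR 4.0.16 quasi-likelihood fit with a mean per group, under R 4.3.3. Adjusted p-values are Benjamini-Hochberg over 17338 genes, intervals are 95%, and CPM uses TMM-scaled totals. TPM served to pick 6 of the named genes and for an alternative on log2(TPM + 0.1), and FPKM was not used. The script was tested on simulated data. The methods call each sample biologically independent, while the labels name no animals, so p-values may partly measure technical spread.

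The 216 responders were genes higher with IFNγ at an adjusted p under 0.05 in a separate edgeR fit of the 6 delta libraries. The 64 named genes are 21 fixed ones, the 8 responders with the largest difference in each direction among those with at least 5 CPM, the member of smallest p at 5 CPM or more in each list, the responders with the 5 largest called level differences in each direction, and the 5 of highest TPM in each IFNγ group. Some named genes are not reported here. The members and lists were chosen with earlier results of these data known. Where a value is said to use a floor, a group with 3 counts or fewer was set to 3 counts. The fits, their intervals and p-values, and all other values use no floor. The labels give no batch, so dates in file names served as an alternative, beside DESeq2, limma-voom, other scalings and filters, GC offsets, a replicate block, and leaving out libraries. The kit marks strand, but the strand setting of RSEM was not stated.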

Additional observations from a re-analysis of the deposited data

How the results depend on the processing

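The difference of responses gave 0 calls in each direction with the settings of the report. Calls with a larger response in alpha numbered 6 with DESeq2, 408 with no low-count filter, 1 with date as a fixed term (Gm26759), and 0 to 674 leaving out 1 library. Calls with a larger response in beta numbered 5 with DESeq2, 131 with no low-count filter, 2 without alpha IFNγ 1 and 3 (Rnu5g and Gm8226), and 0 to 701 leaving out 1 library, the upper ends both without alpha IFNγ 2. Of the calls with no low-count filter, 405 and 126 were of genes that also passed the filter. Genes reaching a higher level in alpha numbered 1265 at an adjusted p under 0.01, 930 without alpha IFNγ 1 and 3, and 1430 to 3068 leaving out 1 library, and genes reaching a lower level 1340, 766, and 1413 to 3223. The responders' median difference was -0.62 when responders were chosen at an adjusted p under 0.01 and lay between -0.43 and -0.18 otherwise. Over the 129 genes called higher in alpha and in beta, a set chosen on alpha and beta values, the median difference was -0.47. Rnu5g reversed without alpha IFNγ 1 and 3, to a difference of -11.83 and a level of -13.38, and the Gm47248 level became 0. The cause was not tested, and this setting leaves 1 IFNγ alpha library, assumed to vary like the others.

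The replicate numbers did not pair the libraries, since same-number deviations correlated between -0.243 and 0.326 (18 pairs, mean 0.0477). Same-date deviations correlated between -0.106 and 0.376 (13 pairs, mean 0.166), and the report's main fit has no date term. A limma-voom fit with date as a random block (correlation 0.315) gave 0 and 0 calls and a median of -0.30. The fit with a replicate block gave 0 and 0 calls, 2372 and 2435 level calls and a median of -0.31. The settings without alpha IFNγ 1 and 3, and without alpha control 2 and beta controls 1 and 3, were chosen after seeing the data, as were the choices of protein-coding responders, of a floor of 3 counts and of over 3 counts in both control groups. Among the 64 named genes, 20 changed the sign of an uncalled difference in some setting. At 3 libraries per group the median half-width of a responder's interval was 1.20 log2 units.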
